A study of Mus musculus with 6 samples.

Results

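Interleukin-1 family transcripts were examined in epidermis peeled from embryonic mouse back skin. The family was taken as 9 genes: the cytokines Il1a, Il1b, Il18, Il33, Il36a and Il36g, the receptor antagonists Il1rn and Il36rn, and the decoy receptor Il1r2. Their probes were found through the platform's gene symbols, with the older names Il1f6, Il1f9 and Il1f5 read as Il36a, Il36g and Il36rn. All 9 genes were represented, by 14 of the 45281 probes on the array. The comparison was between groups of 3 arrays: Harlequin Ichthyosis mutant embryos and wild type embryos, all of the C57BL6 strain aged E17.5 (embryonic days). Harlequin ichthyosis is a severe inherited disorder of cornification in which thick plates cover the skin and the barrier fails. The labels describe the 3 arrays of each group as biological replicates, and give neither the mutated gene and allele of the model nor the number of litters. Sample titles carry the prefix bo20 for mutant arrays 1 and 2 and wild-type arrays 1 and 2, and bo12 for mutant array 3 and wild-type array 3. The labels used here do not say what the prefix stands for.

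The interleukin-1 family joins cytokines that start inflammation to proteins that hold it back. IL-1α and IL-1β bind the same receptor, which signals with the accessory chain Il1rap through Myd88 to NF-κB, and the antagonist encoded by Il1rn occupies that receptor without signalling. Il1r2 binds the same ligands but lacks a signalling domain. The IL-36 cytokines use the receptor Il1rl2, which Il36rn blocks, while IL-18 and IL-33 have receptors of their own. Keratinocytes are known to store IL-1α and to make several of these proteins, and IL-1β and IL-18 are cut to their active form by caspase-1.

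Array quality bears on every value that follows. Mean raw intensity was 390.0 to 462.5 in the mutant arrays and 260.0 to 398.1 in the wild-type arrays before normalization, and 37.9% to 40.7% of probes were detected on an array. Wild-type array 3 stood apart, with Pearson's r across probes of 0.836 to 0.891 with the other arrays, which had 0.965 to 0.990 among themselves, so the differences of the family probes are also given without it. Of 10 keratinocyte markers, 9 were kept, and their summed normalized intensity was 96300 to 101490 in mutants and 100591 to 119458 in wild type. All 8 mast cell markers and 8 of 9 dermal fibroblast markers were also kept. Their sums were lowest in wild-type array 3. The fibroblast sum was 14402 there against 23628 to 31130 on the other arrays, and the mast cell sum 15037 against 19278 to 24263. The sum of the 7 endothelial markers was highest there, at 3978 against 2410 to 3408.

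Detection came first, because it does not depend on normalization between arrays. A probe counted as detected where its detection p, the share of negative controls at least as bright, was under 0.05. Of the 14 probes, 8, 9 and 7 were detected on mutant arrays 1 to 3, against 9, 9 and 4 on wild-type arrays 1 to 3. Of these, 1 probe each for Il1a, Il18, Il1rn and Il36rn was detected on all 6 arrays. Il36g, a keratinocyte cytokine of the IL-36 group, had detection p of 0.674 to 0.911 over the 6 arrays. Its only probe was therefore not detected on any array, and no difference is given for it. A further 3 of the 4 Il1rn probes and 1 of the 2 Il18 probes were not detected on enough arrays to be kept.

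**Figure D1:**
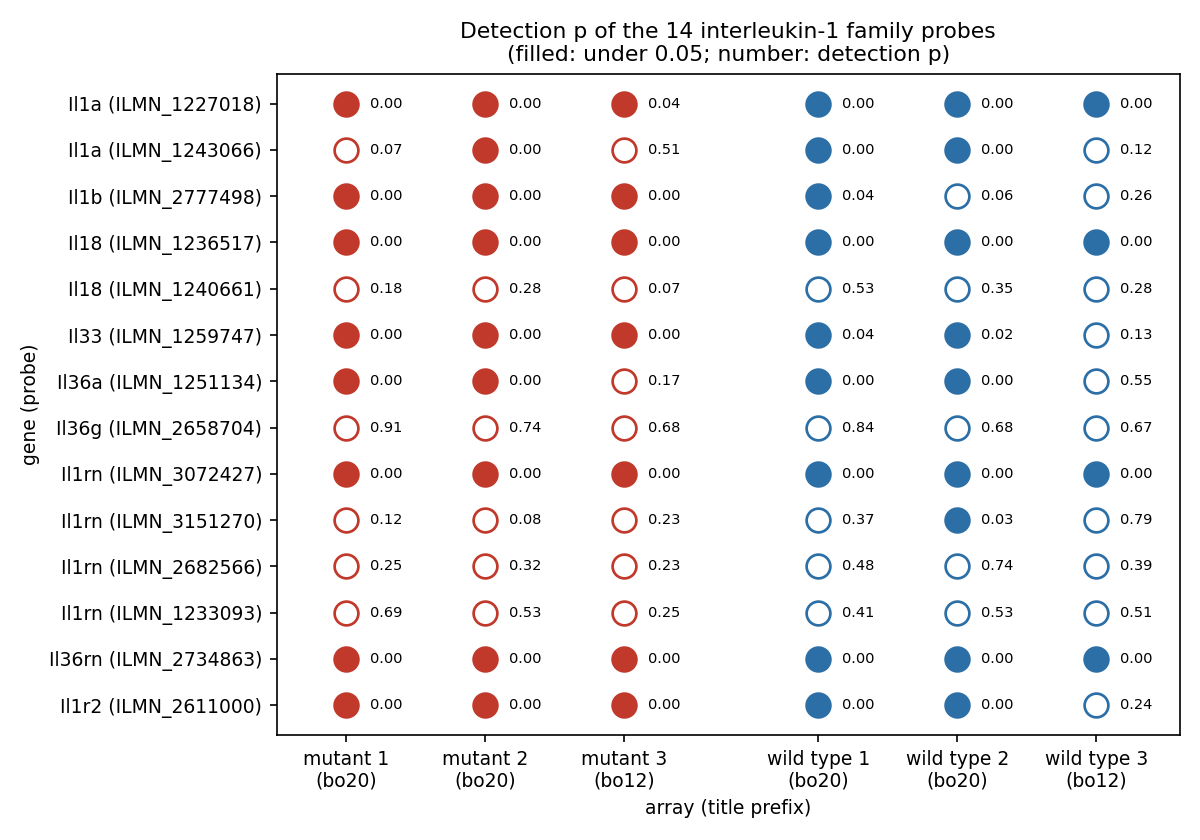
Detection of the 14 interleukin-1 family probes (rows) on the 3 mutant arrays (left) and 3 wild-type arrays (right). Filled circles mark a detection p under 0.05 and the number beside each circle is the detection p. The Il1b probe is filled on all 3 mutant arrays and on 1 wild-type array.

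A probe was kept for testing where at least 3 arrays detected it, which left 9 family probes of 8 genes among 18358 probes. A probe detected only in the group where it is high could pass this filter, so the kept probes are not the whole family. Il1b was detected on 3 mutant arrays and 1 wild-type array, and Il33 and Il1r2 on 3 and 2. Their mutant arrays alone met the filter, which favours higher mutant values in the counts that follow. In limma 0 of the 9 reached an adjusted p under 0.05, as did 0 of the 18358 (0%). Without adjustment, 3 of the 9 had p under 0.05, all higher in mutants, against 2.47% of all kept probes. The same 3 probes, for Il1b, Il33 and Il1rn, had all mutant values above all wild-type values, against 5.63% of all kept probes. None had all mutant values below, against 7.68%. The difference was above 0 for 7 of the 9, compared with 46.1% of kept probes. That count depended on wild-type array 3, without which Il18 and Il36a stood at -0.98 and -0.07. With 1 kept probe for each of the 8 genes, the family's median log2 difference was 0.57, and 0.12 without that array.

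Il1b encodes IL-1β, the secreted inflammatory cytokine of myeloid cells and some epithelia. Its only probe had normalized log2 intensities of 5.76, 6.42 and 6.11 in mutant arrays 1 to 3 and 4.89, 4.75 and 4.49 in wild-type arrays 1 to 3. All 3 mutant arrays detected it, as did wild-type array 1 alone, and the groups did not overlap. The mean was 6.10 ± 0.33 in mutants and 4.71 ± 0.20 in wild type (SD, n = 3 each), a 2.62-fold difference with a 95% interval of 1.74 to 3.93 and limma adjusted p = 0.225. The log2 difference of 1.39 had a similar size in each prefix, at 1.27 for bo20 and 1.62 for bo12. Leaving out wild-type array 3 gave 1.36 (adjusted p = 0.117). The probe lies near background, and its log2 difference was 0.56 without background correction, 0.79 with a larger offset and 0.41 in the authors' table. In whole tissue a larger number of Il1b-expressing cells and more transcript per cell cannot be told apart. For any single probe, the exact two-sided permutation test of 3 against 3 arrays cannot go below p = 0.1, the value reached by Il1b, Il33 and Il1rn.

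Il33, which encodes a nuclear alarmin of epithelial and stromal cells, showed the same arrangement. Its probe read 5.97, 5.76 and 5.95 in the mutant arrays, against 4.92, 5.02 and 4.64 in the wild-type arrays. Every mutant array detected it, wild-type array 3 did not, and the lowest mutant value stood above the highest wild-type value. The fold was 2.05 (95% interval 1.46 to 2.89), with limma adjusted p = 0.303. The log2 difference was 1.04 with all arrays, 0.90 in the bo20 arrays and 1.32 in the bo12 pair, and leaving out wild-type array 3 gave 0.99 (adjusted p = 0.121). With limma's array weights (0.112 for wild-type array 3), Il33 rose by 0.95 with adjusted p = 0.0446. It was the only family probe to pass in that fit, in which 0.398% of all kept probes passed as higher in mutants. Its log2 difference was 0.40 without background correction, 0.58 with the larger offset and 0.25 in the authors' table.

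Il1rn, the antagonist that occupies the IL-1 receptor, was bright on every array with probe ILMN_3072427. It read 9.76, 9.53 and 9.44 in the mutant arrays and 8.87, 9.08 and 8.29 in the wild-type arrays. The groups did not overlap, although the gap between them was narrower than for Il1b or Il33. The fold was 1.78 (95% interval 1.16 to 2.75, limma adjusted p = 0.684). The log2 difference of 0.83 became 0.67 for bo20 and 1.15 for bo12, and leaving out wild-type array 3 gave 0.60 (adjusted p = 0.373). Probe ILMN_3151270, annotated to the same transcript version, was detected on 0 mutant arrays and 1 wild-type array. Probe ILMN_1233093, annotated to another version of it, was not detected on any array. Nor was probe ILMN_2682566, annotated to a different Il1rn transcript. Which Il1rn transcript forms the probes read was not tested.

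Antagonist and decoy genes other than Il1rn showed smaller or less even differences. Il36rn, the IL-36 receptor antagonist, read 10.23, 10.16 and 9.23 in mutants and 9.66, 9.75 and 9.42 in wild type. Mutant array 3 was the lowest of the 6, so the groups overlapped, and the log2 difference was 0.26 (SE 0.31, limma adjusted p = 0.807), or 0.17 with wild-type array 3 left out. Il1r2, the decoy receptor, read 6.70, 6.97 and 5.87 in mutants, against 6.13, 6.74 and 4.51 in wild type. Its value in wild-type array 3 was below detection. The log2 difference of 0.72 (SE 0.59, adjusted p = 0.791) stood at 0.08 without that array.

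Il1a, the IL-1α gene, was the family member with a difference below 0 on both of its probes. The brighter probe (ILMN_1227018) read 5.55, 7.04 and 4.84 in the mutant arrays and 6.37, 7.44 and 7.55 in the wild-type arrays. The second (ILMN_1243066) read 4.71, 6.29 and 4.36 in mutants, of which 1 was detected, and 5.75, 6.56 and 4.66 in wild type, of which 2 were. Both probes were highest among the mutants in array 2 and overlapped between groups. The log2 differences were -1.31 (SE 0.59, limma adjusted p = 0.791) and -0.54 (SE 0.64, adjusted p = 0.807), and -1.14 and -1.10 without wild-type array 3. Without mutant array 3 they were -0.82 and -0.16, and without mutant array 2 the first was -1.89 and the second no longer passed the filter. The probes disagreed most in wild-type array 3, which was the highest array for ILMN_1227018 and not detected for ILMN_1243066. Within bo12 they accordingly gave -2.71 and -0.30, while within bo20 they gave -0.61 and -0.66.

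Il18 and Il36a varied with the title prefix more than with genotype. Il18, a constitutive keratinocyte cytokine, read 9.56, 9.79 and 7.76 in mutants and 9.92, 10.15 and 6.81 in wild type. Both bo12 arrays lay below all 4 bo20 arrays, with a bo12 minus bo20 difference of -1.91 among mutants and -3.23 among wild type. The mutant minus wild-type difference was 0.08 (SE 0.96, limma adjusted p = 0.979). It was -0.36 in bo20, 0.96 in bo12 and -0.98 once wild-type array 3 was left out. Il36a, an IL-36 agonist, read 6.34, 6.21 and 4.55 in mutants and 6.08, 5.43 and 4.36 in wild type, and neither bo12 array detected it. Its difference was 0.41 (SE 0.60, adjusted p = 0.839), and -0.07 without wild-type array 3. In all, 5 of the 9 kept probes (for Il1a by ILMN_1243066, Il18, Il36a, Il36rn and Il1r2) had both bo12 arrays below all 4 bo20 arrays, against 13.2% of all kept probes. Il1b, Il33 and Il1rn were not among them.

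**Figure D2:**
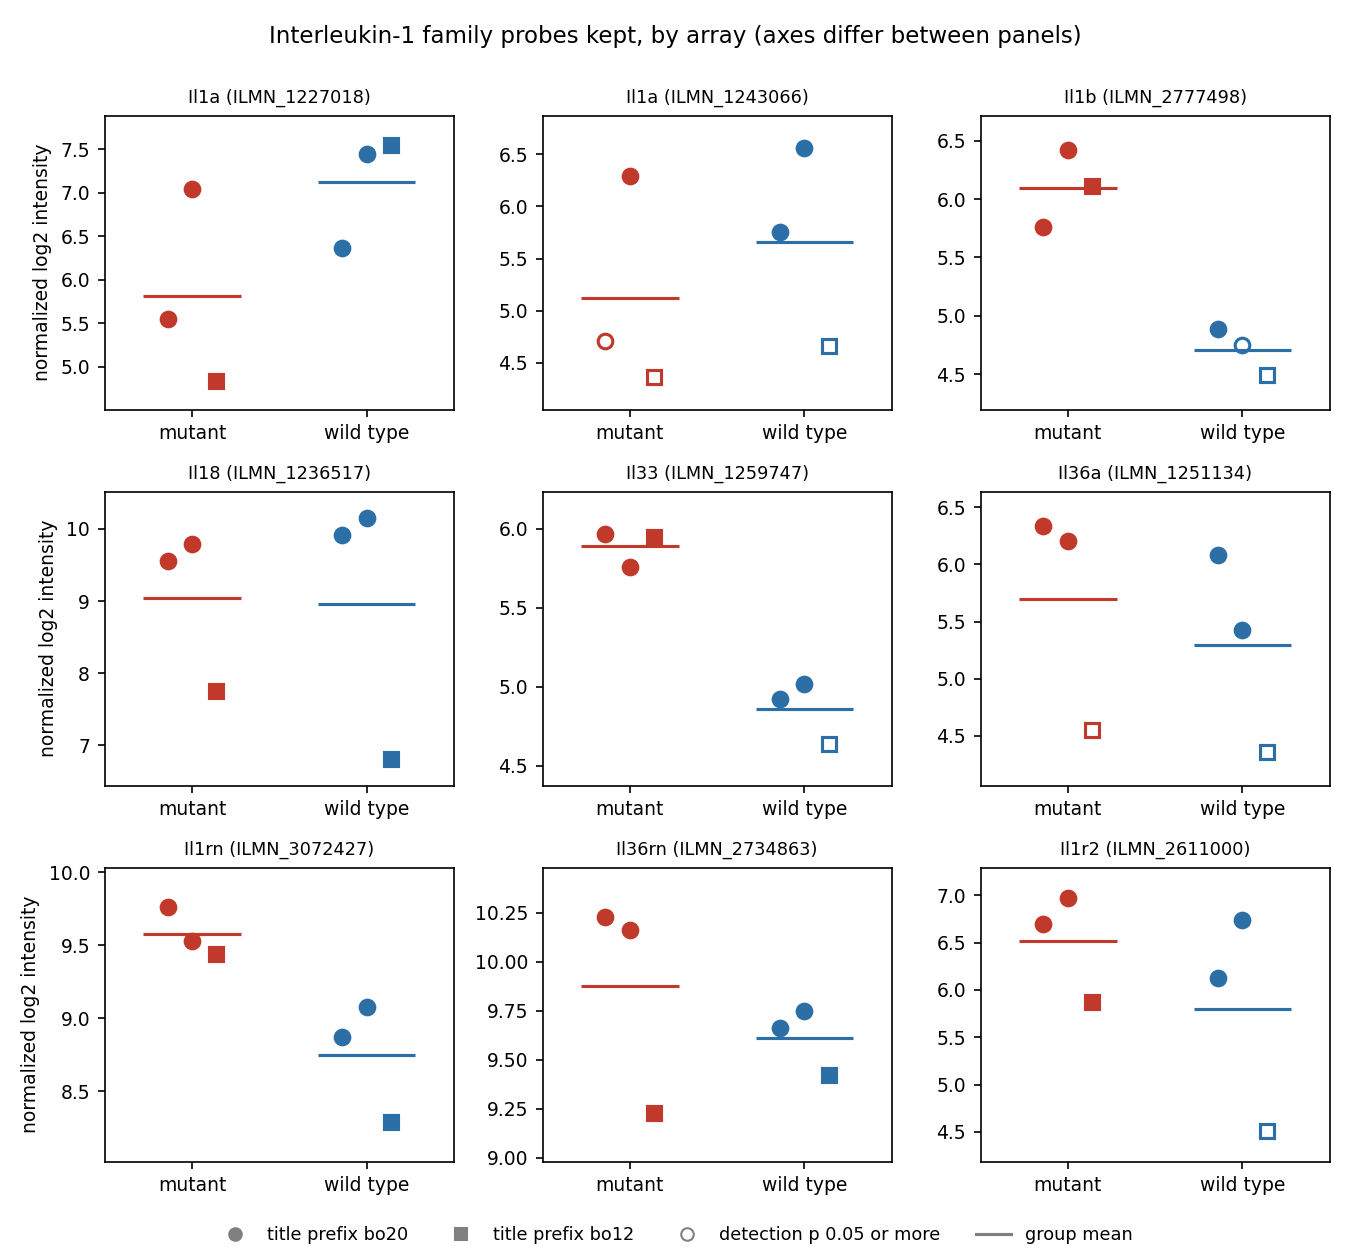
Normalized log2 intensity of the 9 kept probes by array, with mutants on the left and wild type on the right of each panel. Circles are bo20 arrays, squares are bo12 arrays, open symbols were not detected, and lines are group means. Il1b, Il33 and Il1rn have all mutant points above all wild-type points. The squares lie lowest for Il1a (ILMN_1243066), Il18, Il36a, Il36rn and Il1r2.

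Since the prefix holds arrays of both groups, it was also fitted as a block. With that block no family probe passed limma's adjusted p of 0.05, where 0.261% of all kept probes did. Il1b had adjusted p = 0.0982, Il33 0.130 and Il1rn 0.214, and Il36a and Il1r2 had 0.430 and 0.366. Without wild-type array 3 none passed either, against 0.275% of kept probes. The difference was above 0 both within bo20 and within bo12 for 5 of the 9 (Il1b, Il33, Il36a, Il1rn and Il1r2), against 24.9% of all kept probes. Neither bo12 array detected Il36a, so the sign of its bo12 difference (0.19) is not informative. Il1b, Il33 and Il1r2 were not detected on wild-type array 3, the bo12 wild-type array. Only 1 array a group lies in bo12, so a difference within it has no replicate check.

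**Figure D3:**
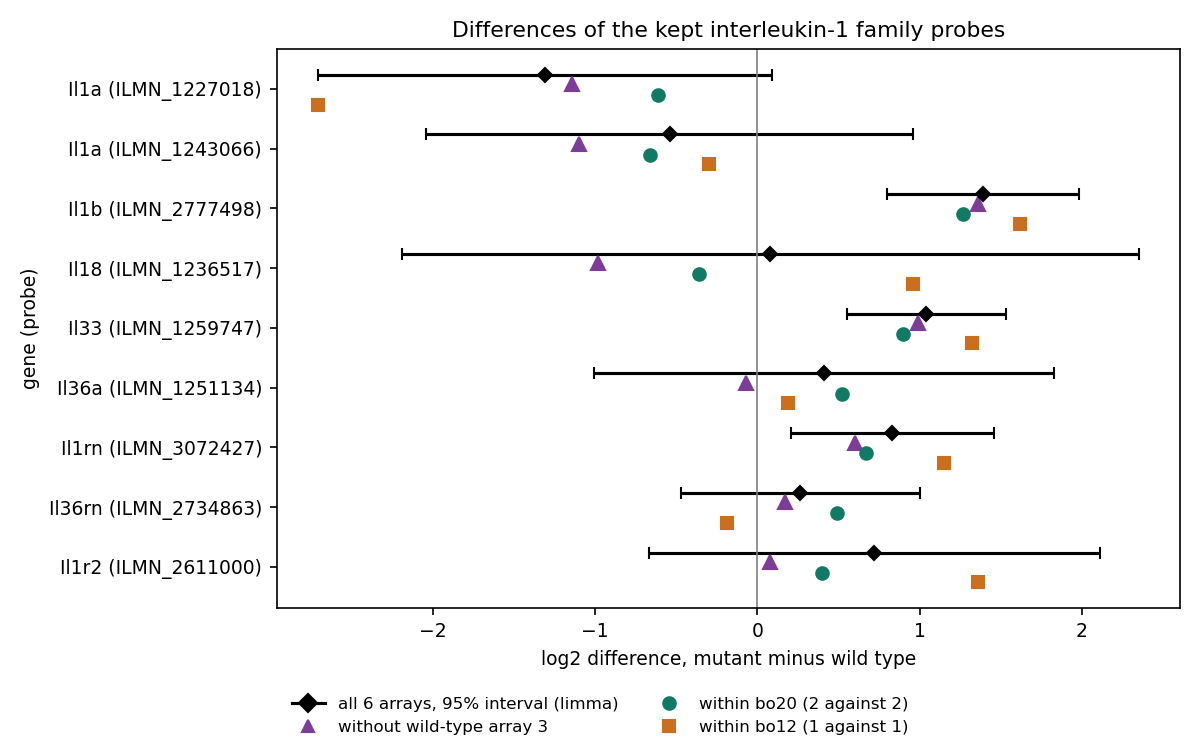
Log2 difference, mutant minus wild type, of each kept probe: with all 6 arrays and the 95% interval from limma (diamonds), without wild-type array 3 (triangles), within bo20 (circles) and within bo12 (squares). The 4 values lie close together and above 0 for Il1b, Il33 and Il1rn, and are spread widely for Il1a (ILMN_1227018) and Il18.

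The windows upstream of the transcription start sites are shown for the 3 genes whose groups did not overlap, Il1b, Il33 and Il1rn, with Il1a for contrast. The sequences are from RefSeq on GRCm38.p6, read 5′ to 3′ on the gene's strand, and cover the 250 bases before a start. Capitals mark matches on either strand to 4 motifs: the NF-κB consensus, AP-1 (TGANTCA), C/EBP (TTGCNNAA) and the TATA box (TATAAA). Il1b (chr2:129371140-129371389, minus strand) and Il1a (chr2:129309973-129310222, minus strand) have 1 window each. Il33 has windows at chr19:29924863-29925112 and chr19:29945540-29945789, plus strand, and the window at the gene's start is given for Il1rn (chr2:24336610-24336859, plus strand). Further Il1rn windows, beginning at chr2:24345041 and chr2:24345121, are not shown. Which start gives the transcript read by the bright Il1rn probe was not tested.
Il1b: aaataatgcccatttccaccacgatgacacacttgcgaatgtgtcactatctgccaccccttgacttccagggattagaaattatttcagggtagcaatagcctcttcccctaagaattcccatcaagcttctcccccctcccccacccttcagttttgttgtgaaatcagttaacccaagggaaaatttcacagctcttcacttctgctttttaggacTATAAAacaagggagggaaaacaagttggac
Il33 first window: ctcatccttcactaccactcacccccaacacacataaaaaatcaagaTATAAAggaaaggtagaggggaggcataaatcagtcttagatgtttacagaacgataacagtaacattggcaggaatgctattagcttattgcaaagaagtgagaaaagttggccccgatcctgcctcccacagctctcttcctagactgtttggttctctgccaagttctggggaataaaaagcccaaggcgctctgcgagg
Il33 second window: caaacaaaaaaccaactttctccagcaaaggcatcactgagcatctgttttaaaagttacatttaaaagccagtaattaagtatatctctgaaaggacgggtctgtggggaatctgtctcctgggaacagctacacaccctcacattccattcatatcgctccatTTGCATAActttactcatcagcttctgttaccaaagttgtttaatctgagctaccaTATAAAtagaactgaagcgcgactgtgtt
Il1rn: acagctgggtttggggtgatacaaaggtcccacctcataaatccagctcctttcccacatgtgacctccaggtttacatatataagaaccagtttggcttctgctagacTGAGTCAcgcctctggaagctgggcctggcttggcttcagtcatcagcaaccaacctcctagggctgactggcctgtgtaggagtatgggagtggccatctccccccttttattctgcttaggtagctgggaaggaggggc
Il1a: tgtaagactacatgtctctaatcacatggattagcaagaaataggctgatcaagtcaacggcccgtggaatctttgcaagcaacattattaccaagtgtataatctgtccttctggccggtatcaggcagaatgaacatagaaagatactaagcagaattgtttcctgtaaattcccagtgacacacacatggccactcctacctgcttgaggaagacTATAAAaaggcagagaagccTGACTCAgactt

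Il1b and Il1a, neighbours on chromosome 2, both hold a TATAAA, beginning 31 and 32 bases before the start. Il1a also holds an AP-1 match 12 bases before the start and Il1rn one at 141 bases. The second Il33 window has a TATAAA at 29 bases and a C/EBP match at 85. Windows of 300 bases, 250 before to 50 after a start, were found for 8 of the 9 genes, 12 windows in all. The NF-κB consensus matched 0 of the 12, against 8.46% of 32851 mouse windows, AP-1 2 against 7.81%, C/EBP 2 against 10.8% and the TATA box 6 against 13.6%. Not all TATAAA matches lie 29 to 32 bases before a start. Il18 has its match at 175 bases before, the first Il33 window at 203 before and an Il1rn window at 15 after. The 12 also include Il1rn windows that overlap each other. No marked motif overlaps another, and a match is a match of letters only.

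Other genes of the pathway were read from lists, with 1 kept probe a gene, and no list gene passed limma's adjusted p of 0.05 with all arrays. Among all 11354 kept genes, 44.4% had a difference above 0, 5.96% had all mutant values above wild type and 8.24% all below, and the median difference was -0.06. The further ligand Il36b, an IL-36 agonist, read 9.02, 9.22 and 7.68 in mutants and 8.66, 9.24 and 8.66 in wild type, with a log2 difference of -0.22 (SE 0.43). Il1f10, a further family gene, did not pass the detection filter.

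Receptor and binding protein genes that were kept differed little with all arrays together, and all read low, with group means of 4.81 to 5.74. Of 8 listed genes, 7 were on the array and 5 were kept, with a median log2 difference of -0.13 and no gene whose groups separated. The 5 values were -0.38 for Il18bp, which neutralizes IL-18, -0.16 for the IL-36 receptor Il1rl2, -0.13 for the shared chain Il1rap, -0.12 for the inhibitory receptor Sigirr and 0.05 for the IL-18 receptor chain Il18rap. The IL-1 receptor gene Il1r1 and the IL-18 receptor gene Il18r1 were on the array and did not pass the detection filter. The IL-33 receptor gene Il1rl1 had no named probe, so no difference is given for these receptors. Without wild-type array 3 the list's median was 0.03. It was 0.12 within bo20 and -0.76 within the bo12 pair.

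Genes that process or release the cytokines were mixed. Of 21 listed, 14 were kept, 11 above 0 and 3 below, with a median log2 difference of 0.18, and 3 separated upwards and 1 downwards. Casp1, the IL-1β and IL-18 converting protease, read 9.23, 9.27 and 9.21 in mutants, all below the 9.78, 9.88 and 10.02 of wild type, at -0.65 on the log2 scale (SE 0.19, adjusted p = 0.587 in limma). Casp4, the caspase that responds to cytosolic lipopolysaccharide, lay the other way, at 5.94, 6 and 6.32 in mutants and 5.03, 4.98 and 4.47 in wild type (difference 1.26, SE 0.24, adjusted p = 0.274), where 2 arrays detected it. Capn2, a calpain subunit of the protease family that cuts the IL-1α precursor, and Casp8, an apoptotic initiator, differed by 1.44 (SE 0.60) and 1.04 (SE 0.44). Those of Capn2 and Casp8 were 0.69 and 0.51 without wild-type array 3, where the list's median was 0.24. Inflammasome sensors Nlrp3, Nlrc4 and Aim2 did not pass the detection filter.

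In the signalling chain, the smallest p belonged to Nfkbiz, Zc3h12a, Nfkbia and Irak3. Of 31 listed, 28 were kept, with a median log2 difference of 0.05, 15 above 0 and 13 below, and 7 separated upwards and 2 downwards. The median was 0.30 without wild-type array 3 and 0.58 under median scaling. Nfkbiz, an inducible NF-κB cofactor, read 8.36, 7.88 and 8.01 in mutants, all above 6.44, 6.60 and 5.94 in wild type, and limma gave 1.76 (SE 0.26) on the log2 scale with adjusted p = 0.121. Nfkbiz rose by 1.55 (adjusted p = 0.0476) once wild-type array 3 was left out, as the list's single gene past the threshold in that fit. Zc3h12a, an endonuclease that degrades inflammatory mRNAs, Nfkbia, the main NF-κB inhibitor, and Irak3, which restrains Myd88 signalling, differed by 1.36 (SE 0.22), 1.16 (SE 0.19) and 1.41 (SE 0.35), with adjusted p of 0.152, 0.152 and 0.454. The 2 that separated downwards were the kinase gene Irak2 (-0.62) and the ubiquitin ligase gene Traf6 (-0.34). Myd88 itself differed by 0.31 (SE 0.21).

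Genes that IL-1 or IL-36 can induce in skin cells formed the list with the most separated genes. Of 36 listed, 21 were kept, 19 above 0 and 2 below, with a median log2 difference of 0.64. That median was 0.33 without background correction, 0.34 in the authors' table and 1.17 under median scaling. All mutant values stood above all wild-type values for 11 of the 21 (52.4%), against 5.96% of all kept genes. All stood below for 0, against 8.24%. Of the 11, the cytokine genes Ccl2, Ccl20 and Tnf were detected on 3 mutant arrays and on 0 wild-type arrays, so they passed the detection filter only through the group where they were high. The filter favours their separation, and the count of 11 and the median of 0.64 both include them. The smallest p belonged to the chemokines Ccl2, Cxcl1 and Ccl7 and the acute-phase gene Saa3, with limma adjusted p of 0.0818 to 0.152. Ccl2 was not above background in wild type and was at least 2.90-fold higher in mutants, counting each wild-type array at its lowest detected signal. Counted in that way, Ccl20 and Tnf were at least 1.32-fold and 1.27-fold higher, with limma adjusted p of 0.421 and 0.707. These bounds compare group means and leave out the spread between arrays, so they are not limits of a confidence interval. Cxcl1 (detected on 2 wild-type arrays), Ccl7 and Saa3 differed by 1.93 (SE 0.23), 1.55 (SE 0.25) and 2.48 (SE 0.32) on the log2 scale. Without wild-type array 3, 5 of the 21 rose past the threshold (those 4 and the alarmin gene S100a8), against 0.207% of all kept genes, and the median was 0.81. Many of these genes also answer to other inflammatory signals, and the list was drawn up with earlier results of these arrays known. Il6, Csf2, Csf3 and Il17c, also on the list, did not pass the detection filter.

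**Figure D4:**
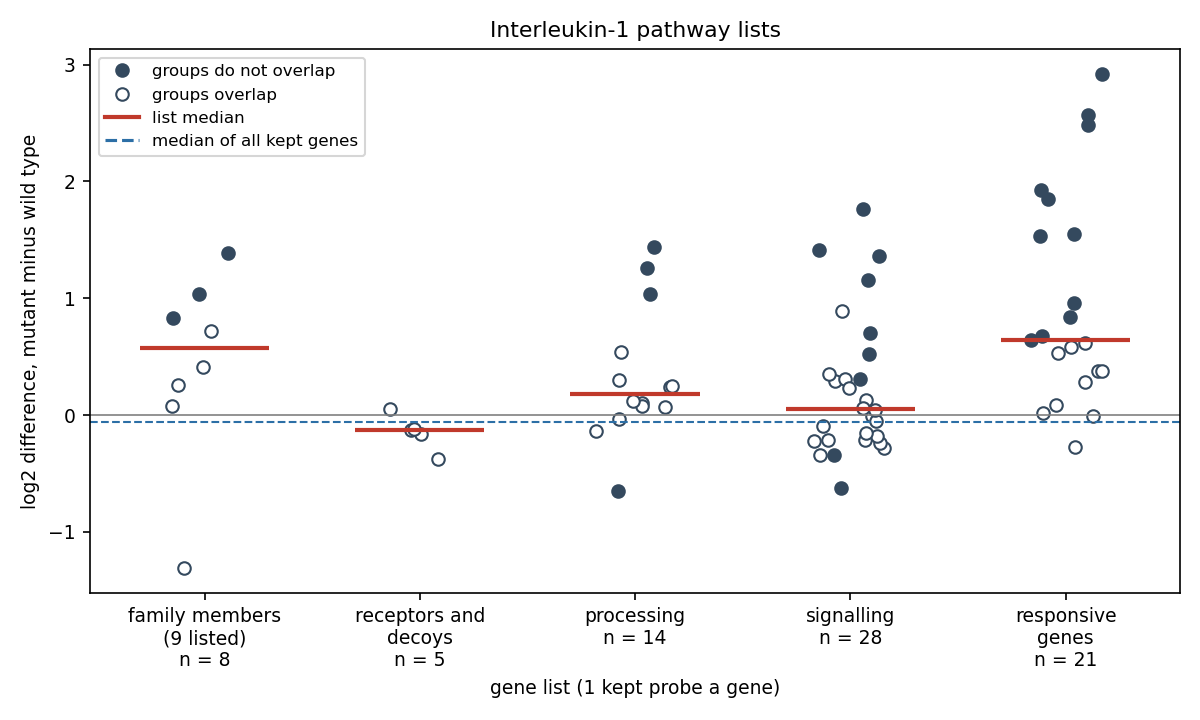
Log2 difference, mutant minus wild type, of each kept gene in the family and in 4 pathway lists. Filled points are genes whose groups do not overlap, red lines are list medians and the dashed line is the median of all kept genes (-0.06). The responsive genes have a median of 0.64, which includes Ccl2, Ccl20 and Tnf, detected on mutant arrays only, and the receptors a median of -0.13.

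Markers of Langerhans cells and macrophages, a known source of IL-1β, were read in the same comparison. All 14 kept of 16 had differences above 0, against 44.4% of all kept genes. Their median was 0.47, against -0.06. All mutant values stood above all wild-type values for 4 of the 14, against 5.96% of all kept genes, and 10 overlapped between groups. The summed normalized intensity of the 14 was 6034 to 6526 in mutants and 2967 to 4071 in wild type. Lyz2, which encodes lysozyme, held much of that gap: without it the sums were 3835 to 4500 in mutants and 2506 to 3475 in wild type. The 2 not kept, Cd207, which marks Langerhans cells, and Itgam, were not detected on any array. Of 10 neutrophil markers, 3 were kept, with a median of 0.03, or 0.72 without wild-type array 3. Their sums were 120 to 176 in mutants and 114, 90 and 251 in wild-type arrays 1 to 3. Retnlg differed by 0.82, with all mutant values above all wild-type values (limma adjusted p = 0.619). Camp (0.03) and Ltf (-0.31) overlapped between groups. Ngp, Cxcr2, Csf3r and Mmp8 were not detected on any array. Of the 8 mast cell markers 5 lay below 0, with a median of -0.06. The part of these cells in the family's values was not tested.

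The genes whose pattern was most like that of Il1b, the family probe with the smallest p, were named by Pearson's r over the 6 arrays. They were Dpep2 (0.993), Epsti1 (0.989), Slpi (0.989), Ear3 (0.987) and Tlr7 (0.987). These were the 5 highest of 11353 genes, of which 136 had r over 0.9, and each r rests on only 6 arrays in 2 groups. All mutant values of these 5 stood above all wild-type values, with log2 differences of 0.56 to 2.26. Choosing genes by likeness to Il1b, whose groups do not overlap, favours such separation, so it adds no evidence. Dpep2, Epsti1 and Tlr7 read 4.35 to 5.35 over the 6 arrays, near background. Among family probes the highest r with Il1b was that of Il33 (0.92), and Il1a (ILMN_1227018) had the lowest (-0.567).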

How the data were processed

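Total RNA of epidermis peeled after 1 hour in 5 mM EDTA at 37 °C was amplified from 500 ng and hybridized to Illumina bead arrays, per the labels. The authors deposited raw intensities per probe, without background subtraction or normalization, made with BeadStudio per the submitters' processing notes. Beside each they deposited a fraction that is 1 at the brightest probes, read as 1 minus the detection p. In their deposited log2 table each value equals log2 intensity minus the array's 75th percentile and the probe's median (100% of values within 0.001). Array version and probe positions: not given in the sources used here.

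Intensities were corrected with limma 3.58.1 (nec, normexp, offset 16), log2-transformed and then quantile-normalized (R 4.3.3). Mutants were compared with wild type by lmFit and eBayes, two-sided, with Benjamini-Hochberg adjustment over 18358 kept probes. The fit was tested on simulated data. Symbols were updated through Entrez identifiers (28620 probes) or accessions (2637), the platform's kept for 4527, and 9497 probes were unnamed; GRCm38.p6 served for names and promoters. A gene in a list was read from its kept probe of highest mean. Members and lists were chosen with earlier results of these data known. All 9 members were named, the up to 4 smallest p of each pathway list, some lists or counts of 5 or fewer in full, and 5 genes like Il1b. S100a8, Ccl20, Tnf, Irak2, Traf6 and the kept neutrophil markers were named through such counts. Other counts of 5 or fewer, such as the responsive genes below 0, were not named in full. Myd88, Lyz2, Il1r1 and the other list genes named as not kept or without a probe fall outside that rule. The values of all these were known when they were picked. Same-numbered mutant and wild-type arrays deviated together (r of 0.270, 0.462 and 0.538), so the replicate number was also tried as a block; differently numbered arrays had -0.621 to 0.449, above 0 only within bo20, where mutant array 1 was closer to wild-type array 2 (0.449) than to array 1. Alternatives were other backgrounds, scalings, filters and variance models, blocks, array weights and leaving out each array. Precision is limited by 3 arrays a group.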

Additional observations from a re-analysis of the deposited data

Results flagged for a closer look

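For Il18 and Il36rn the direction differed between title prefixes, in that every pair of arrays within bo20 went one way and the bo12 pair the other. The Il18 log2 difference (mutant minus wild type) was -0.36 within bo20 and 0.96 within bo12. That of Il36rn was 0.49 within bo20 and -0.19 within bo12. The difference between prefixes was not tested, and bo12 holds 1 array a group.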

How the results depend on the processing

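With all arrays 0 of 18358 probes and 0 of 9 family probes passed limma's adjusted p of 0.05. The count over all probes was 1 without background correction, 6 in the authors' table, 129 with array weights, 48 with the title prefix as a block and 0 to 49 when each array was left out, the 49 without wild-type array 3. The family count was 1 with array weights (Il33) and 0 in each of the other 16 settings, and 0 to 0 when each array was left out. With the replicate number as a block 0 probes passed and no family call changed. Il18 gave 0.00 without background correction, -0.47 with array weights and -0.98 to 0.71 when each array was left out, lowest without wild-type array 3 and also below 0 without mutant array 1 (-0.18) or mutant array 2 (-0.30). Il36a gave -0.07 to 0.97 in the same series, lowest without wild-type array 3. The cause of these changes was not tested. The other 7 kept probes kept their direction in every setting that gave a value. The adjusted p ranged from 0.0622 to 0.981 for Il1b, 0.0446 to 0.998 for Il33 and 0.125 to 0.998 for Il1rn. Median scaling moved the median of all kept probes to 0.42, and Il1b, Il33 and Il1rn stood at 1.68, 1.34 and 1.44 there. Over all settings the list medians ranged from -0.29 to 0.19 for receptors, 0.09 to 0.73 for processing, -0.04 to 0.58 for signalling and 0.33 to 1.17 for responsive genes, each highest under median scaling. Signals near background limit Il1b, Il33, Il36a and the second Il1a probe, and also the kept receptor and binding protein genes.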
